A study of Mus musculus with 6 samples.

Results

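Akp3, Alpi, Alppl2 and Alpl are the mouse genes of the alkaline phosphatase family, and their transcripts were followed in small intestinal mucosa. The 4 genes were taken by symbol from the 38561 genes counted in every pool, and all 4 passed the filter on low counts that left 16425 genes. The set was chosen by the Akp3 counts of these same pools, which differed between the genotypes, so the genotype values of all 4 are given as a description, and nothing rests on whether Akp3 passes a threshold in them. Mucosa came from C57BL/6J mice of 8 to 12 weeks, and while the labels say small intestine, the study's text names the jejunum as its source. One group is labelled as an intestine-specific knockout of Rbm47 (Rbm47-IKO), though its Rbm47 levels, given below, were not lower than in the other group. The study made this knockout with a constitutive Cre transgene driven by the villin promoter (Vil1), active in the epithelium of small and large intestine. Rbm47 encodes an RNA-binding protein. The controls are labelled wild type (wt), while the study's methods name Rbm47 fl/fl mice as controls throughout. Each genotype was sequenced as 3 pools of polyA RNA, each pool mixing 3 mice of both sexes according to the labels, so that differences between single mice were not measured. The study's text gives wider ranges for the age and for the number of mice in a pool. The study compared these groups to find transcripts that change when Rbm47 is deleted from the epithelium.

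Alkaline phosphatases are zinc enzymes that remove phosphate groups from many substrates at the outer face of the cell membrane, to which a glycosylphosphatidylinositol (GPI) anchor holds them. In the small intestine the enzyme of the enterocyte brush border removes phosphate from bacterial lipopolysaccharide and from extracellular nucleotides, and its activity has long served as a mark of mature enterocytes. The mouse has several genes of the intestinal type. Akp3 encodes the duodenal enzyme, Alpi an intestinal enzyme present along more of the gut, and Alppl2 the enzyme known as embryonic alkaline phosphatase. Alpl encodes the tissue-nonspecific enzyme of bone, liver, kidney and neutrophils.

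Akp3, Alpi and Alppl2 lie together on chromosome 1 within 41223 bases, and Alpl lies alone on chromosome 4. Positions are those of the count tables, on GRCm38. Alppl2 (ENSMUSG00000026246) spans 87086690 to 87089928 and Alpi (ENSMUSG00000079440) spans 87098002 to 87101606, both on the minus strand. Akp3 (ENSMUSG00000036500) spans 87125008 to 87127912 on the plus strand, so that Alpi and Akp3 point away from each other across 23402 bases. Alpl (ENSMUSG00000028766) spans 137741733 to 137796384 on the minus strand. In GENCODE M21 the coding sequences of Akp3 and Alpi were 81.5% identical, those of Akp3 and Alppl2 78.6%, and those of Alpi and Alppl2 81.7%, whereas Alpl was 64.5 to 66.1% identical to the other genes.

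The promoters of the clustered genes are shown because these neighbours had different levels and different genotype values. All 4 genes matched RefSeq promoters of GRCm38.p6 (5 promoters, since Alpl has 2), each with 250 bases before and 50 after the start. RefSeq lists Alppl2 as reaching 6006 bases further upstream than the start used for its single promoter here. Capitals mark a pair of 13-base runs that the promoters of the clustered genes share in the same order.
Akp3, chr1:87124704-87125003, plus strand: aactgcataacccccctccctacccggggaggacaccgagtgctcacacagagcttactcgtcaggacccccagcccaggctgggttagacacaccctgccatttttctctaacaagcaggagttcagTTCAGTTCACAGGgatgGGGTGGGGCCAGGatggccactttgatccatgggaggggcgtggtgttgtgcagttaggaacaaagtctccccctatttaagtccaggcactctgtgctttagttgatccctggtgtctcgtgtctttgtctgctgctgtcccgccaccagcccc
Alpi, chr1:87101557-87101856, minus strand: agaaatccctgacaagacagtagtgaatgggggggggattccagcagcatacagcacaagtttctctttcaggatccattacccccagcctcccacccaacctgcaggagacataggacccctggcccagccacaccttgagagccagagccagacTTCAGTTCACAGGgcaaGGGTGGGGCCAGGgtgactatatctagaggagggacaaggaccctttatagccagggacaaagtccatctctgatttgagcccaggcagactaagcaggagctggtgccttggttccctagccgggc
Alppl2, chr1:87089879-87090178, minus strand: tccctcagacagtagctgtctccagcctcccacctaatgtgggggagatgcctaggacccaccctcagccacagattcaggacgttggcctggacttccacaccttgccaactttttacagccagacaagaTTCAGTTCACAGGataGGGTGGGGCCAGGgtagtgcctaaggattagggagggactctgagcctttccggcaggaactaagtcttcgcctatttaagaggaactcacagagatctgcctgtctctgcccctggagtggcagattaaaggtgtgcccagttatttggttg

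The run TTCAGTTCACAGG began at -122 in Akp3, -94 in Alpi and -119 in Alppl2, counted from the RefSeq start, and it was found on either strand of 10 of 32851 promoters (0.0304%). The run GGGTGGGGCCAGG began at -105, -77 and -103 and was found in 16 promoters (0.0487%). Aligned over their whole windows, the promoters of Akp3 and Alpi were 65.4% identical, those of Akp3 and Alppl2 62.0%, and those of Alpi and Alppl2 68.4%. A letter string read by HNF4 factors, CAAAGTCCA, was in the Alpi promoter alone of these 5, at -19, and in 0.475% of all promoters. A string read by KLF factors, GGGNGTGG, was in the Akp3 promoter alone of these 5, at -69, and in 17.6% of all promoters. The CDX string TTTATNG was at -33 in Alpi, where it overlaps the TATA string TATAAA of the other strand, and also in 1 promoter of Alpl. It was in 10.9% of all promoters, and TATAAA was in 13.6%. Akp3 and Alppl2 had TATTTAA there instead, at -31 and -30, a string in 4.51% of promoters. The GATA string AGATAA, in 11.2% of promoters, was in none of the 5. Both strands were searched, the strings were chosen after the sequences had been seen, and a match describes letters and not binding.

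Total counts were 31560320 to 38951830 per pool, and 3 counts, taken as the smallest level told from none, corresponded to 0.079 to 0.0919 CPM (counts per 1e6 counts, on library sizes normalised by the TMM method). The 10 enterocyte markers, which include Alpi itself, were found in every pool, so the tissue label fits its epithelium. Their sums were 57120, 61320 and 56750 CPM in the pools labelled Rbm47-IKO and 67150, 64340 and 71100 CPM in wt pools. The labelled sums were all lower, with 5 genes above 0 in log2 fold change, 5 below and 0 called. These sums rest mostly on the most abundant genes. The largest fall in mean was that of Apob, with 10840, 10430 and 9864 CPM against 19710, 14900 and 22120 CPM. Fabp2 and Anpep had higher means in the labelled pools, at 8203 against 5774 CPM and 11890 against 8300 CPM. The sums therefore do not measure the share of enterocytes. Counts over the whole targeted gene were not lower under the knockout label. Rbm47 (ENSMUSG00000070780, chromosome 5, 66016549 to 66173117) had 602.7, 624.6 and 619.8 CPM in the IKO-labelled pools and 459.8, 449.9 and 472.1 CPM in wt pools, which on the log2 scale is 0.42 higher (standard error, SE, 0.10; edgeR adjusted p = 0.0751). Those pools are therefore called the libraries labelled Rbm47-IKO, or IKO-labelled. Which exons were deleted is not given in the sources used here, so counts summed over the whole gene cannot check the label. Smooth muscle RNA was uneven, and that tissue's 6 markers summed to 3302 CPM in Rbm47-IKO pool 3 and 2803 CPM in wt pool 2 against 90.7 to 585.7 CPM in the rest. Rbm47-IKO pool 3 also held pancreatic acinar RNA, with 603 counts over 6 genes against 8 to 16 in the other 5 pools, and 0 of these 6 genes passed the low-count filter. Transcripts of the sex chromosomes went against the labels' both sexes in wt pools 1 and 3. Xist, expressed in female cells, had 37 and 25 counts there against 1317 to 9777 in the other 4 pools, and 4 Y-linked genes summed to 215.4 and 220.3 CPM there against 53.0 to 143.7 CPM. Whether the pools were handled in separate batches is not given in the sources used here. An SD below is the spread between pools. An SE comes from the edgeR fit, as the size of the log2 fold change over the square root of its F statistic. The dispersions of that fit borrow from other genes.

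Akp3 was higher in every IKO-labelled library than in every wt library. Its counts were 309, 321 and 809 in the IKO-labelled libraries and 32, 96 and 90 in wt libraries, or 8.93, 8.48 and 24.8 CPM against 0.941, 2.53 and 2.47 CPM. IKO-labelled pools 1 and 2 lay close together and pool 3 was 2.92 times the lowest, while wt pool 1 was well under wt pools 2 and 3. The groups did not overlap, and the lowest labelled library was 3.35 times the highest wt library. The means were 14.1 ± 9.29 CPM (SD, n = 3 pools) and 1.98 ± 0.900 CPM (SD, n = 3), with a log2 fold change of 2.82 (SE 0.54). By that value Akp3 stood 16th of the 16425 genes. Of the genes tested, 443 (2.70%) passed an edgeR adjusted p of 0.05 or less, 238 of them higher (1.45%) and 205 lower (1.25%) in the IKO-labelled libraries. Akp3 was 1 of them and the other 3 members were not, which restates how the set was chosen. The pools of the groups did not overlap in 23.3% of all genes tested. When single pools were left out, Akp3 had log2 fold changes of 2.13 to 3.08, lowest without Rbm47-IKO pool 3, and the gene passed the threshold in 0 of those 6 fits.

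**Figure D1:**
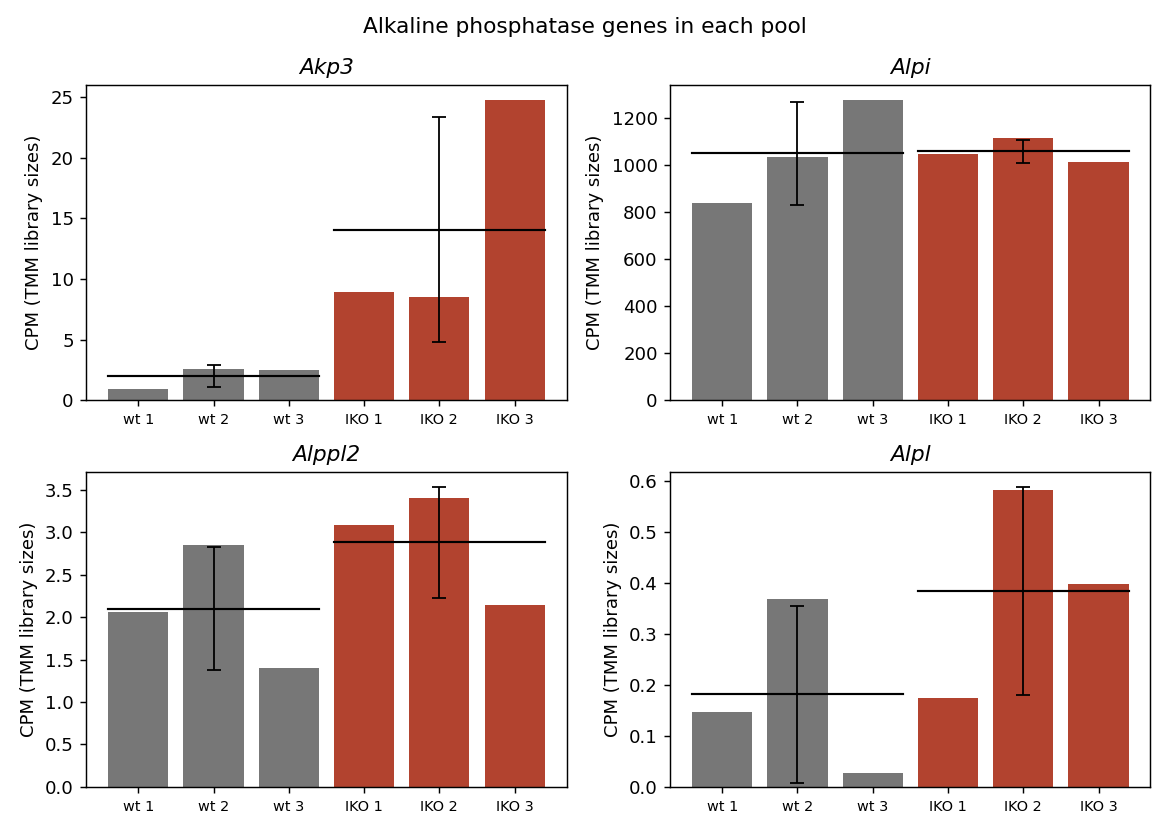
Normalised level (CPM, linear axes from 0, a different scale in each panel) of the 4 genes in each pool. Grey bars are wt pools, red bars the IKO-labelled pools, black lines the group means and error bars the SD of 3 pools. Akp3 is the gene whose groups do not overlap (8.48 to 24.8 against 0.941 to 2.53 CPM), while Alpi, with means of 1057 and 1049 CPM, varies more among wt pools than between the groups.

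Alpi was the abundant gene of the family and overlapped between the groups. Its counts were 36219, 42151 and 33081 in the IKO-labelled libraries and 28478, 39265 and 46497 in wt libraries, or 1046, 1113 and 1013 CPM against 837.5, 1035 and 1276 CPM. All 3 labelled libraries lay inside the wt range. The means were 1057 ± 50.8 CPM (SD, n = 3) and 1049 ± 219.6 CPM (SD, n = 3), with a log2 fold change of 0.01 (SE 0.17). The highest wt library was 1.52 times the lowest, against 1.10 times among the labelled libraries.

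Alppl2 was near the level of Akp3 in wt mucosa and overlapped between the groups. It had 107, 129 and 70 counts in the IKO-labelled libraries and 70, 108 and 51 in wt libraries, or 3.09, 3.41 and 2.14 CPM against 2.06, 2.85 and 1.399 CPM. Rbm47-IKO pool 3, the highest for Akp3, was the lowest of its group for Alppl2. The means were 2.88 ± 0.657 CPM (SD, n = 3) and 2.10 ± 0.724 CPM (SD, n = 3), with a log2 fold change of 0.45 (SE 0.33). That value was 0.90 without Rbm47-IKO pool 3 and wt pool 2, and 0.02 without wt pools 1 and 3.

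Alpl was at the edge of detection. It had 6, 22 and 13 counts in the IKO-labelled libraries and 5, 14 and 1 in wt libraries, which is 0.173, 0.581 and 0.398 CPM against 0.147, 0.369 and 0.0274 CPM. The level reached 3 counts in 5 of the 6 pools, and wt pool 3 was below that. The log2 fold change of 1.06 (SE 0.78) came from overlapping groups and these few reads. It was 2.13 without wt pool 2, 0.57 without wt pool 3 and 0.07 without wt pools 1 and 3. The 8 markers of neutrophils, a known source of this enzyme, summed to 0.9999 to 1.33 CPM, with Csf3r (12 to 26 counts) and Mpo (8 to 22 counts) found in every pool and S100a8, S100a9, Ly6g and Elane under 3 counts in every pool, and the part of these cells in the Alpl counts was not tested.

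Levels of different genes were compared per kilobase of gene model (RPKM). Alpi had 433.5 to 476.2 RPKM in the IKO-labelled libraries and 358.4 to 546.0 RPKM in wt libraries, and its mean over the 6 pools ranked 101st of the 16425 genes tested. Akp3 ranked 6595th, with 5.05 to 14.8 RPKM against 0.560 to 1.51 RPKM. Alppl2 ranked 11056th, with 1.02 to 1.61 RPKM against 0.662 to 1.35 RPKM, and Alpl ranked 16265th, with at most 0.144 RPKM in any pool. In wt libraries the order was therefore Alpi first, Akp3 and Alppl2 overlapping in the middle, and Alpl last. In the IKO-labelled libraries no neighbours in that order overlapped, and Akp3 lay above Alppl2 in all 3. The model of Akp3 in the tables is 1680 bases, which is the coding length, while RefSeq continues that gene for 816 bases past its right end. The models of Alpi (2337 bases) and Alppl2 (2113 bases) include more than coding sequence, so the RPKM of Akp3 does not cover the same kind of transcript as theirs.

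Within a pool, counts of Akp3 and Alpi come from the same RNA and need no scaling between pools. Akp3 gave 0.853, 0.762 and 2.45 counts per 100 Alpi counts in the IKO-labelled libraries and 0.112, 0.245 and 0.194 in wt libraries. The labelled libraries were all higher, with means of 1.35 ± 0.947 (SD, n = 3) against 0.184 ± 0.0666 (SD, n = 3). Without Rbm47-IKO pool 3, the pool with acinar RNA and much smooth muscle RNA, the labelled mean was 0.807. Per count of Alppl2, without correction for gene length, Akp3 gave 2.89, 2.49 and 11.6 counts against 0.457, 0.889 and 1.77. Per kilobase, Akp3 lay above Alppl2 in all 3 labelled libraries and also in wt pools 2 and 3, at 1.51 against 1.35 and 1.47 against 0.662 RPKM. In wt pool 1 it lay below, at 0.560 against 0.974 RPKM. Alppl2 itself gave 0.271 ± 0.0517 counts per 100 Alpi counts (SD, n = 3) against 0.210 ± 0.0883 (SD, n = 3). Since Alpi held 97.4 to 99.7% of the counts of the family, the sum over the 4 genes followed Alpi, at 1058, 1125 and 1040 CPM in the IKO-labelled libraries and 840.7, 1040 and 1280 CPM in wt libraries. Those sums overlapped between the groups.

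**Figure D2:**
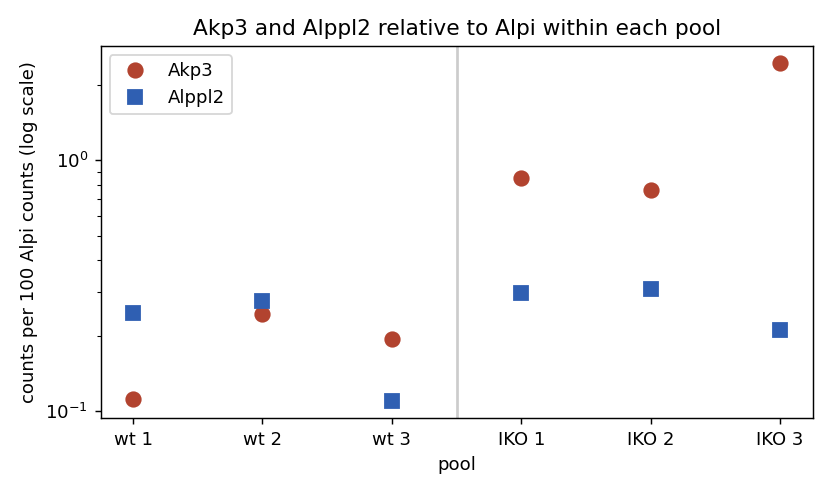
Counts of Akp3 (red circles) and Alppl2 (blue squares) per 100 counts of Alpi in each pool, on a log axis, with wt pools left of the vertical line and IKO-labelled pools right of it. Akp3 runs from 0.762 to 2.45 in the labelled libraries and from 0.112 to 0.245 in wt libraries, while Alppl2 overlaps between the groups.

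Near-identical stretches could let reads of one gene be counted on another. The longest run shared by the Akp3 and Alpi transcripts was 68 bases, coding in exon 2 of 11 of both, at 87125202 to 87125269 in Akp3 and 87101269 to 87101336 in Alpi, and it is printed whole because reads inside it cannot be assigned to either gene.
Shared run: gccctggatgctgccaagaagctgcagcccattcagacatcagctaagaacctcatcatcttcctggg
Of the 50-base words of Akp3, 35 of 1631 (2.15%) also occurred in Alpi, and those were 1.53% of the words of Alpi. No word of 75 bases was shared between any of the 4 genes. The read length and the treatment of reads that match more than 1 gene are not given in the sources used here, and the part of shared reads in the Akp3 counts was not tested.

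Signals of gut region and of other tissues differed between the pools that carry the Akp3 values. The 6 pancreatic acinar genes summed to 18.5 CPM in Rbm47-IKO pool 3, where Akp3 was highest, and to 0.211 to 0.441 CPM in the other 5 pools, with Ctrb1, the precursor of chymotrypsin, at 6.83 CPM in that pool. Rbm47-IKO pools 1 and 2 had 0.260 and 0.422 CPM of acinar RNA and 8.93 and 8.48 CPM of Akp3. Smooth muscle RNA was high in wt pool 2 as well as in Rbm47-IKO pool 3, and Akp3 was 2.53 CPM in the former. With both of these pools left out, an alternative added after seeing the data, the log2 fold change of Akp3 was 2.33. Without the wt pools of little Xist, also added after seeing the data, the value was 2.48, resting on wt pool 2 as the lone control.

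The 6 genes of duodenum and proximal small intestine summed to 1335, 1588 and 1396 CPM in the IKO-labelled libraries and 890.9, 1464 and 1436 CPM in wt libraries, which overlap, and 0 of the 6 was called. Most of these sums is Fabp1, a fatty acid-binding protein, whose pools overlap at 1133 to 1377 CPM against 756.3 to 1306 CPM. Pdx1, a transcription factor of duodenum and pancreas, had 0.578, 0.766 and 1.10 CPM against 0.294, 0.105 and 0.302 CPM. Pdx1, Gata4 (154.1 to 180.7 against 108.3 to 146.9 CPM) and Slc40a1 (7.26 to 8.73 against 5.16 to 6.97 CPM) had higher values in the IKO-labelled libraries without overlap, while Onecut2, at 18.9 to 26.4 against 17.2 to 50.9 CPM, had the lower mean there and Cybrd1 overlapped. Over all genes tested the pools did not overlap in 23.3%. The 5 ileal genes summed to 570.0, 618.0 and 457.4 CPM against 439.5, 310.7 and 313.0 CPM, without overlap, and 0 of the 5 was called. Most of these sums is Slc51a, a subunit of the basolateral bile acid exporter, at 370.9 to 479.7 CPM against 259.0 to 323.9 CPM. Fabp6, the ileal bile acid-binding protein, had 31.7, 39.8 and 18.6 CPM against 17.2, 3.98 and 2.55 CPM. Slc10a2, the ileal bile acid transporter, had the lower mean in the IKO-labelled libraries, at 17.2, 7.84 and 14.6 CPM against 44.4, 3.40 and 7.05 CPM, and Fgf15 and Slc51b overlapped as well. Muc6, a mucin of the duodenal Brunner glands, overlapped at 2.22 to 5.97 CPM against 2.61 to 3.88 CPM. Of the 6 colon genes 2 had enough reads to be tested and 0 were called. One was Hoxb13, a homeobox gene of the hindgut, with 2.60, 3.54 and 5.18 CPM against 0.00, 0.553 and 0.302 CPM, without overlap (log2 fold change 3.69; edgeR adjusted p = 0.0708), while Car1 had 0 counts in all pools. All 8 genes of B cells and plasma cells had lower fitted values in the IKO-labelled libraries with 0 called, and their sums were 56.9, 114.7 and 102.8 CPM against 156.1, 96.4 and 136.7 CPM. The part of gut region, of enterocytes, of B cells, of pancreatic RNA and of sex in the Akp3 values was not tested. In pooled tissue, more cells that make a transcript and more transcript per cell cannot be told apart.

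**Figure D3:**
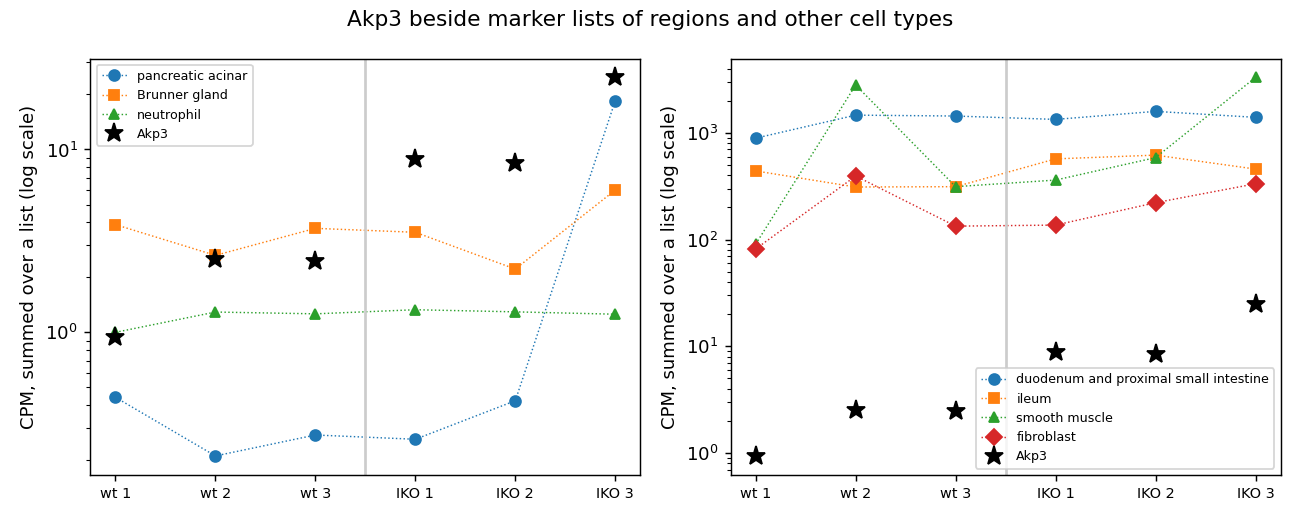
Akp3 (black stars) and summed CPM of marker lists in each pool, on log axes, with wt pools left of the vertical line. The left panel holds pancreatic acinar, Brunner gland and neutrophil lists and the right panel duodenal, ileal, smooth muscle and fibroblast lists. Acinar RNA is at 18.5 CPM in Rbm47-IKO pool 3 and at most 0.441 CPM in the other pools, and Akp3 is at 24.8 CPM in that pool and at 8.93 and 8.48 CPM in Rbm47-IKO pools 1 and 2.

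Within 250000 bases on either side of the cluster 12 other genes were listed, of which 4 had enough reads to be tested. Of these 4, 0 were called, against 2.70% of all genes, and a count over 4 genes says little beside that share. Dis3l2, an RNA exonuclease, had a log2 fold change of 0.14 (SE 0.11). The 2 nearest tested genes on the other side were Eif4e2, a cap-binding protein, with 0.10 (SE 0.11), and Efhd1, a calcium-binding protein of mitochondria, with 0.80 (SE 0.44; edgeR adjusted p = 0.429). Efhd1 was the only one of these 4 genes whose pools did not overlap, at 1.77 to 2.28 CPM against 0.500 to 1.73 CPM. Gigyf2, a partner of Eif4e2 in translational repression, had -0.09 (SE 0.10). Ecel1 and Chrng, between Akp3 and Eif4e2, had at most 4 and 3 counts in any pool, and Prss56 and Chrnd had 0 in all.

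**Figure D4:**
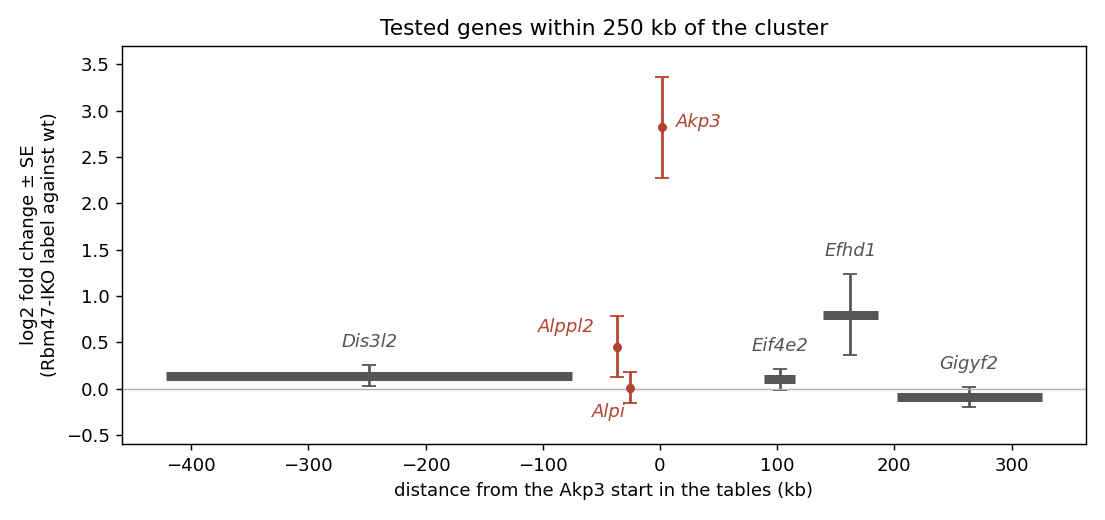
Log2 fold change with its standard error (edgeR, IKO-labelled libraries against wt) of the genes tested within 250000 bases of the cluster, against distance from the Akp3 start in kilobases. Horizontal bars span each gene, and alkaline phosphatase genes are red. Akp3 is at 2.82, its neighbours Alpi and Alppl2 at 0.01 and 0.45, and the other genes between -0.09 and 0.80.

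Genes that make, anchor, regulate or share substrates with alkaline phosphatases were read from 8 lists. Of 90 genes listed, 89 were in the tables and 87 were tested, of which 0 were called higher and 3 lower in the IKO-labelled libraries, namely Pigg, Thrb and Nt5e, against 1.45% and 1.25% of all genes. The median log2 fold change was 0.07, against -0.01 over all genes tested, and pools did not overlap for 29 genes (33.3%), against 23.3% of all genes tested.

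Of 26 genes for building and attaching GPI anchors, 1 was called. Pigg, an enzyme that adds an ethanolamine phosphate side branch to the anchor, had 15.1, 15.0 and 15.0 CPM in the IKO-labelled libraries against 30.6, 27.2 and 32.6 CPM in wt libraries. The labelled libraries were nearly equal and all lower, with 15.0 ± 0.0538 CPM (SD, n = 3) against 30.1 ± 2.73 CPM (SD, n = 3), a log2 fold change of -1.01 (SE 0.11; edgeR adjusted p = 0.00950). Pigt, a subunit of the transamidase that attaches the anchor to the protein, was 0.46 (SE 0.10; edgeR adjusted p = 0.0558) and did not pass. Pgap1, which remodels the attached anchor, was 0.25 and Pigq, which acts in its first step, was -0.08, neither called. The median of the list was 0.02. The zinc transporters Slc30a5, Slc30a6 and Slc30a7, which load zinc onto alkaline phosphatases in the secretory pathway, had log2 fold changes of -0.20, 0.02 and 0.16, with 0 of 3 called.

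Of 15 transcription factors and nuclear receptors known to act on intestinal alkaline phosphatase genes, 1 was called. Thrb, the beta receptor of thyroid hormone, had 16.9, 16.3 and 21.8 CPM against 31.3, 30.3 and 39.4 CPM. All labelled libraries were lower, with a log2 fold change of -0.88 (SE 0.16; edgeR adjusted p = 0.0387). The abundant enterocyte regulators Hnf4a (0.43, SE 0.18), Hnf4g (-0.27, SE 0.15) and Klf4 (0.27, SE 0.14) did not pass, with edgeR adjusted p of 0.276, 0.421 and 0.416. The median of the list was 0.05.

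Of 8 genes for extracellular nucleotide breakdown, a role of the intestinal enzyme, 1 was called. Nt5e encodes the GPI-anchored ectonucleotidase that turns AMP into adenosine. It had 132.7, 115.8 and 123.9 CPM against 219.9, 241.1 and 333.2 CPM, without overlap, with means of 124.1 ± 8.46 CPM (SD, n = 3) and 264.7 ± 60.2 CPM (SD, n = 3) and a log2 fold change of -1.09 (SE 0.17; edgeR adjusted p = 0.0219). Entpd8 (-0.25), Enpp3 (-0.39) and Ada (-0.15), which act on other steps of the same route, did not pass. The median of the list was -0.02. The calls of these 3 genes were not all kept when single pools were left out, and the cause was not tested. With 1 pool left out in turn, Pigg passed in 3 of 6 fits, Thrb in 1 of 6 and Nt5e in 2 of 6, while their log2 fold changes stayed between -1.07 and -0.94, between -1.02 and -0.74, and between -1.21 and -0.89. Against wt pool 2 alone, without wt pools 1 and 3, none of the 3 passed, at -0.85, -0.72 and -0.95.

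Of 16 other brush border hydrolases 0 were called, against 2.70% of all genes, and 4 had pools that did not overlap, against 23.3%. Among the 16, 8 had a fold change above 0 and 8 below, and the median was 0.03. Anpep, aminopeptidase N, had 10910, 12460 and 12300 CPM against 8637, 7991 and 8272 CPM, which do not overlap, with a log2 fold change of 0.52 (SE 0.14; edgeR adjusted p = 0.107). Sis, sucrase-isomaltase, was -0.39 (SE 0.16; edgeR adjusted p = 0.271) and Mgam, maltase-glucoamylase, -0.26 (SE 0.17; edgeR adjusted p = 0.527). No gene was called among 10 tested genes of lipopolysaccharide sensing (median 0.17), in which Ticam1, Irak4 and Traf6, signalling proteins of the Toll-like receptor route, had 0.39, 0.19 and -0.22. The 7 tested genes of phosphate transport and the mineral partners of Alpl (median 0.11) also gave 0 calls. The phosphate transporter of the apical membrane Slc34a2 was 0.03, the exporter Xpr1 -0.37 and Slc20a1 0.11. Pdxk, a kinase of vitamin B6, whose phosphate form is a substrate of Alpl, was -0.40 and was not called.

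**Figure D5:**
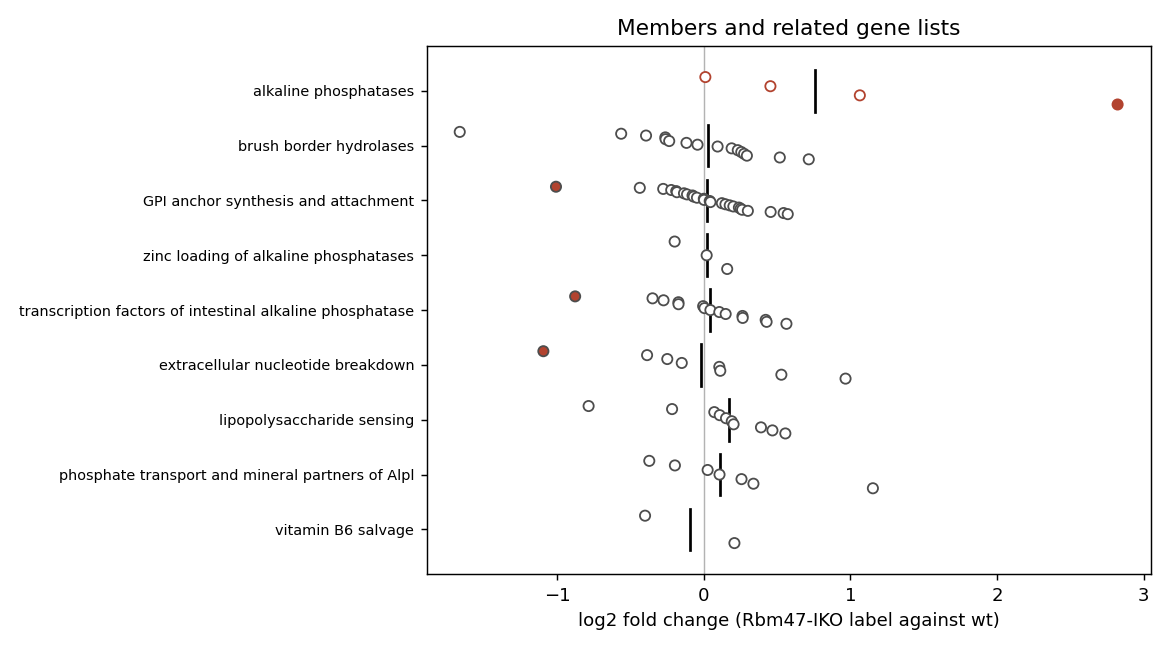
Log2 fold change (IKO-labelled libraries against wt) of the alkaline phosphatase genes and of the tested genes of 8 related lists. Each circle is a gene, filled where it passed an edgeR adjusted p of 0.05 or less, and vertical bars are medians. Akp3 is at 2.82, and since its counts chose the set, its distance from the lists is no result. The 87 genes of the lists run from -1.66 to 1.15, and the filled circles among those are Pigg, Thrb and Nt5e.

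Genes whose pattern over the 6 pools was most like that of Akp3 were sought by Pearson's r of log2 CPM among 13488 genes, as a description. The pools share their library and depth across genes, and 6 points fix r only loosely. Bscl2, seipin of lipid droplets, had r = 0.988, followed by Usp20, a deubiquitinase, at 0.988, Dgkh, a diacylglycerol kinase, at 0.987, Tead3, a partner of YAP, at 0.987, and Tyro3, a receptor tyrosine kinase, at 0.986. All 5 were higher in each labelled library than in each wt library, which their choice by likeness to Akp3 largely sets. Their log2 fold changes were far smaller than that of Akp3, at 0.26 to 0.74, and none of them was called. Akp3 itself had r = 0.27 with Alpi and 0.34 with Alppl2. For Alpi the nearest genes were Nhlrc2 at 0.996, Eif2ak1, the heme-regulated kinase, at 0.983, Hgsnat, a lysosomal acetyltransferase, at 0.978, Tsr3 at 0.977 and Mfsd9 at 0.976. As with Alpi, which they were chosen to resemble, their labelled libraries overlapped with wt libraries, and the highest of the 6 pools was wt pool 3.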

How the data were processed

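PolyA RNA of 6 pools, 3 per genotype, was analysed, grouped by the genotype in the labels. The authors deposited 1 table per pool of reads counted on 38561 Ensembl genes, as counts without normalization. The submitters' processing notes name STAR 2.5.1a, Subread, featureCounts 1.4.6-p5 and GRCm38, and strand use is not given in the sources used here. The authors' CPM column scales each count to 1e6 counts in the pool, and the authors' RPKM column divides that by the gene model's kilobases. Recomputing both from the deposited counts gave the same values within rounding, and the counts were tested.

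Genes past filterByExpr of edgeR 4.0.16 (R 4.3.3) were normalised by TMM and tested by its quasi-likelihood test at a Benjamini-Hochberg adjusted p of 0.05 over 16425 genes. CPM in the text uses TMM library sizes, with RPKM from it. Alternatives were DESeq2 1.42.0, limma-voom (limma 3.58.1), other scalings and filters, the pool number as a block, each pool left out, and, added after the data were seen, both muscle-rich pools left out and both wt pools of little Xist left out, where the lone wt pool is assumed to vary like the other group. An exact permutation test of 3 pools against 3 cannot give a p below 0.1. Floors cover counting error only, since reads are not independent molecules. The members and all lists were chosen with earlier results of these data known. Named list genes were those called and otherwise the 3 of highest mean CPM, 1 of which is not reported here; likeness (5 genes) used a mean CPM of 1 or more and log2 CPM with a prior count of 2. Apob, Fabp2, Fabp1, Pdx1, Gata4, Slc40a1, Onecut2, Slc51a, Fabp6, Slc10a2, Fgf15, Slc51b, Muc6, Ctrb1, Csf3r, Mpo, S100a8, S100a9, Ly6g, Elane, Cybrd1, Hoxb13, Car1, Xist, Ecel1, Chrng, Prss56 and Chrnd were named after their values were seen. Transcripts came from GENCODE M21, promoters from RefSeq, and coding and promoter identity from global alignment in Biopython 1.88. Pigyl and Ank were matched through RefSeq synonyms.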

Additional observations from a re-analysis of the deposited data

How the results depend on the processing

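The number of genes called was 443, 1252 with DESeq2 and 100 with the pool number as a replicate block, 1 without wt pools 1 and 3 (2079 at an unadjusted p under 0.05), and within 1.5 times of 443 under the other 7 alternatives. Leaving out 1 pool gave 0 to 431 calls (0 without Rbm47-IKO pool 2, with 1729 genes at an unadjusted p under 0.05, 11 without wt pool 3, 32 without Rbm47-IKO pool 1 and 119 without Rbm47-IKO pool 3). Over the 8 related lists the 3 calls became 13 with DESeq2, 8 with library size only, 6 with a filter of CPM of at least 1 in at least 3 pools, 0 without wt pools 1 and 3 (18 at an unadjusted p under 0.05), and 0 to 3 with 1 pool left out. The cause was not tested. Akp3 had log2 fold changes of 2.33 to 2.84 under the 10 alternatives besides single left-out pools, and missed the threshold in limma-voom, with the replicate block, without wt pools 1 and 3 and with any 1 pool left out. Its counts chose the set, so the settings in which it passed support nothing. Nt5e lost its call with the block (adjusted p = 0.0689) and without wt pools 1 and 3, and Pigg and Thrb lost theirs in the latter alone of the 10. Alpi ranged from -0.13 to 0.18 with 1 pool left out and from -0.02 to 0.04 otherwise. Alppl2 ranged from 0.24 to 0.74 with 1 pool left out and reached 0.90 with both muscle-rich pools left out and 0.025 without wt pools 1 and 3, both added after seeing the data. Alpl ranged from 0.57 to 2.13 with 1 pool left out, highest without wt pool 2, was 0.070 without wt pools 1 and 3, and had too few counts for a value under the filter of CPM of at least 1 or without both muscle-rich pools. Akp3 per 100 Alpi counts ranged from 0.807 to 1.65 in the libraries labelled Rbm47-IKO and from 0.153 to 0.219 in wt libraries with 1 pool left out, and per kilobase of gene model the means were 1.88 and 0.255. No result changed direction past its threshold. Deviations of pools with the same number correlated at 0.41, -0.0026 and -0.28, and the highest value of any pair was 0.479, for Rbm47-IKO pool 3 with wt pool 2. With 3 pools per group these values are tied together and cannot tell whether pools of the same number shared a batch. No pairing is given in the sources used here, so the block fit is not read as a paired analysis. Alpl, at 1 to 22 counts, is limited by depth.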
